A study of Schizosaccharomyces pombe with 12 samples.

Results

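Of the genes for cytosolic proteins of the small ribosomal subunit of fission yeast, Schizosaccharomyces pombe, 55 with symbols that begin with rps and a number were studied. The 55 genes were taken by symbol from the 7015 listed features, leaving out antisense features, non-coding RNA identifiers and mitochondrial genes. Genes under other symbols, such as cpc2, are not among them. The ubiquitin fusion genes given below are not among them either, and which subunit's protein each of these encodes was not established here. The 55 genes fall into 31 protein families, of which 8 have a single gene, 22 have 2 copies and 1, rps4, has 3 copies. All of them matched the RefSeq annotation, with 28 on chromosome I, 20 on chromosome II and 7 on chromosome III. Transcripts were measured by RNA sequencing in wild-type cells without selection markers, labelled as exponential phase, in YES, a rich yeast extract and glucose medium. There were 4 samples after 5 h in YES made with 100% D2O (heavy water, in which deuterium replaces hydrogen), 4 after 24 h in the same D2O medium and 4 untreated controls in H2O medium, described by the submitters as independent samples. The question was how the expression of these genes differed after each time in D2O. The H2O controls have no sample of equal duration among those analysed here, so D2O exposure cannot be told apart from longer culture or from the change of medium. In bulk RNA, fewer cells expressing a gene and less of its RNA per cell cannot be told apart either. All levels and percentages of control given here are relative to the other RNAs counted in a sample. No measure of RNA per cell was used, so changes in absolute amount are not known.

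The small subunit binds the messenger RNA and reads its codons against transfer RNAs, while the large subunit forms peptide bonds. It is built in the nucleolus on a ribosomal RNA precursor, and its maturation ends in the cytoplasm. Fission yeast keeps most of these proteins as pairs of nearly identical paralogues on different loci. Ribosomal protein transcripts are among the most abundant in growing yeast, and their level is known to depend on growth conditions and on TOR kinase signalling. Many of the genes carry a short promoter element named the HomolD box, which is known in this species to position transcription in place of a TATA box. Some also carry a second element, the HomolE box.

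The promoter windows of 6 genes are shown, chosen among the genes that hold a HomolD box. They are rps001 and rps1402 with large decreases, rps102 with small ones, rps3001 with a small one at 24 h only, the highly expressed rps2 and a gene of the S6 family. The 3 genes with the largest decreases at 5 h (rps1902, rps1602 and rps2601) held no exact match to either box and are not shown. Each is 60 bases, 5′ to 3′ on the strand of the gene, from RefSeq assembly ASM294v3. Capitals mark the HomolD box, searched as CAGTCACA or its reverse complement TGTGACTG, and the HomolE core, searched as ACCCTACC or GGTAGGGT.
rps001 (chrII:2778819-2778878, plus strand): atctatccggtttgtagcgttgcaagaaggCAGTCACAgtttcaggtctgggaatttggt
rps1402 (chrII:1792274-1792333, plus strand): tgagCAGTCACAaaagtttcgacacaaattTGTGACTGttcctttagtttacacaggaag
rps601 (chrI:187606-187665, minus strand): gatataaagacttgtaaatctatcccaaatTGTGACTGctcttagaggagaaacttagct
rps2 (chrIII:2096053-2096112, minus strand): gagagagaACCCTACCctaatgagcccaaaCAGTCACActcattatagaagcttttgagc
rps102 (chrI:898977-899036, minus strand): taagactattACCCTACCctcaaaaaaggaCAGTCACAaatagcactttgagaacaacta
rps3001 (chrI:4890237-4890296, plus strand): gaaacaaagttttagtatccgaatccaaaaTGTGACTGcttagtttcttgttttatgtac
The nearest HomolD box began 56 bases before the annotated gene start in rps001, 59 in rps1402, 52 in rps601, 46 in rps2, 44 in rps102 and 53 in rps3001. The window of rps1402 held 2 HomolD boxes in opposite orientations. The windows of rps2 and rps102 also held a HomolE core upstream of the HomolD box.

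Over promoters of 250 bases before to 50 bases after the gene start, 34 of the 55 genes (61.8%) held a HomolD box on either strand, and 54 of 83 large subunit genes (65.1%) did. Among all 5123 protein-coding promoters 137 (2.67%) held it, and among the 4985 that belong to no ribosomal protein gene 49 (0.983%) did. The box nearest to the gene start began 43 to 75 bases upstream of it, with a median of 52 bases, and was in the forward orientation in 20 genes and in reverse in 14. The HomolE core was found in 21 small subunit promoters (38.2%), in 20 large subunit promoters (24.1%), in 83 of all promoters (1.62%) and in 42 of those outside the ribosomal protein genes (0.843%). A match is a description of the letters in the window and not a test of binding. Only exact matches were counted, so a promoter without a match may still hold a variant of the element.

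**Figure D1:**
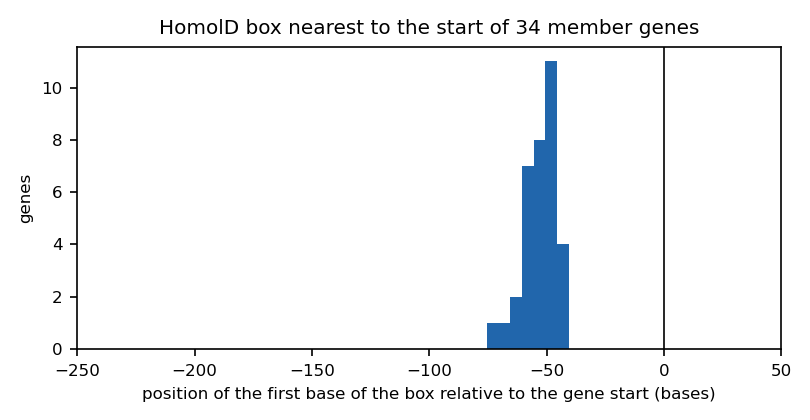
Position of the HomolD box nearest to the gene start in the 34 small subunit genes that hold one. The x axis gives the first base of the box in bases relative to the annotated gene start, the y axis the number of genes; the boxes lie 43 to 75 bases upstream.

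Total counts ranged from 26775612 to 27166349 per sample, and each of the 55 genes had between 1499 and 68291 counts in every sample. The 55 genes together held 3.20% ± 0.065 of the counts in the 5 h D2O samples, 2.21% ± 0.071 in the 24 h D2O samples and 4.52% ± 0.242 in the H2O controls (SD, n = 4 each). The 3 groups did not overlap in this share, which ran from 3.10% to 3.25% at 5 h, from 2.13% to 2.30% at 24 h and from 4.36% to 4.87% in the controls. Control replicate 3 was the highest of all samples. Replicate 2 at 24 h stood apart in ribosomal RNA, which held 2.85% of its counts, against at most 0.723% in any other sample. The median log2 fold change of the 55 genes was -0.65 at 5 h and -1.20 at 24 h without control replicate 3, and -1.24 at 24 h without replicate 2 at 24 h, beside the values with all samples given next.

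Every one of the 55 genes was lower than control after 5 h in D2O, at an adjusted p under 0.05 in the quasi-likelihood test of edgeR over 6683 tested features, of which 37.3% were called lower. The median log2 fold change was -0.72, that is 60.8% of control, with a range of -1.22 to -0.30, while the median over all tested features was 0.01. In 4 genes the transcript was at least 2-fold lower, as in 3.82% of all features tested. In normalised counts (CPM, edgeR's scaled counts after TMM normalisation) the 4 samples at 5 h lay below all 4 controls for all 55 genes, as for 34.1% of features.

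After 24 h in D2O all 55 genes were again lower than control, beside 39.4% of features called lower. The median log2 fold change was -1.25, or 42.1% of control, and the range was -1.65 to -0.85, with a median of 0.01 over all features. A decrease of at least 2-fold was found for 45 of the 55 genes, against 9.01% of features. The CPM of the 24 h samples and the controls overlapped for none of the 55 genes, and 37.1% of features had all 24 h samples below all controls.

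Between the 2 times in D2O, 54 of the 55 genes were lower at 24 h than at 5 h, where 34.6% of features were called lower. The median was -0.52, or 69.8% of the 5 h level, with a range of -0.89 to -0.12, and the median of all features was -0.01. No gene of the group changed 2-fold in this comparison, which 2.05% of features did in the lower direction. The exception was rps3001, at -0.12 ± 0.08 (SE, adjusted p = 0.182). For 51 genes every 24 h sample was below every 5 h sample, as in 30.9% of features; the samples overlapped for rps21, rps23, rps29 and rps3001. The comparisons with control share the control samples.

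**Figure D2:**
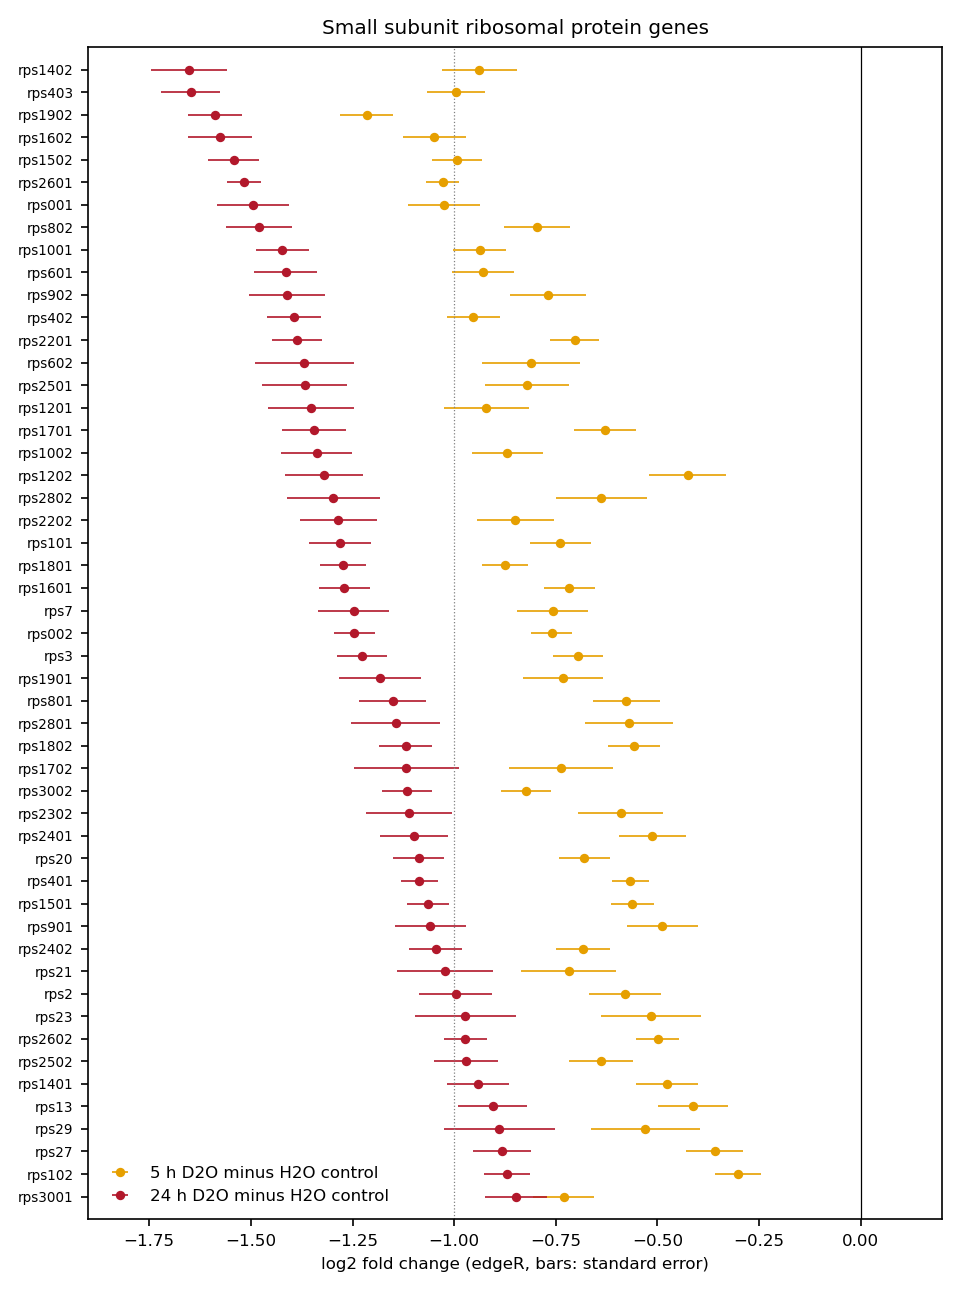
Log2 fold change of 51 of the small subunit genes after 5 h (orange) and 24 h (red) in D2O against the H2O controls, ordered by the 24 h value. The x axis is the edgeR log2 fold change, bars are its standard error, and the dotted line marks a 2-fold decrease; all points lie below 0, and 41 of the 24 h points are past the dotted line.

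Levels between genes were compared per length, in the deposited RPKM (reads per kilobase of feature length, scaled to the total count of the sample). At 5 h the 55 genes spanned from 140 to 1935 RPKM with a median of 746 RPKM, at 24 h from 128 to 1433 RPKM with a median of 485 RPKM, and in the controls from 202 to 2734 RPKM with a median of 1028 RPKM. The 3 highest genes in the controls were rps7, rps2 and rps3, and the 3 lowest were rps3001, rps29 and rps2202. The feature lengths in the deposited tables equalled the RefSeq transcript length for 0 of the 55 genes, for example 1791 against 920 bases for rps101, so levels per length depend on the annotation used.

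Among the single-copy genes, rps7 (SPAC18G6.14c) encodes a protein of the subunit's body and averaged 1861 ± 158 RPKM at 5 h, 1312 ± 64.3 RPKM at 24 h and 2734 ± 268 RPKM in the controls (SD, n = 4 each). Its CPM was 1318, 1334, 1481 and 1586 after 5 h in D2O, 1122, 1000, 992 and 962 after 24 h and 2383, 2225, 2875 and 2190 in H2O. The groups did not overlap, and control replicate 3 was the highest. The log2 fold change against control was -0.76 ± 0.09 at 5 h (SE, adjusted p = 1.58e-06) and -1.25 ± 0.09 at 24 h (adjusted p = 4.49e-09).

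The protein of rps2 (SPCC576.08c) lies at the channel where messenger RNA enters. The gene gave 1626, 1697, 1653 and 1534 CPM at 5 h, 1415, 1234, 1212 and 1020 CPM at 24 h and 2623, 2178, 2672 and 2264 CPM in the controls. All D2O samples were below all controls, and the 2 times in D2O did not overlap. It stood at 66.9% of control at 5 h (log2 SE 0.09, adjusted p = 3.05e-05) and at 50.1% at 24 h (log2 SE 0.09, adjusted p = 7.37e-08).

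Another protein of the entry channel, in the subunit's head, is the product of rps3 (SPBC16G5.14c). For rps3 the CPM was 1336, 1420, 1369 and 1275 at 5 h, 996, 963, 936 and 843 at 24 h and 2238, 2057, 2370 and 2078 in the controls. The 3 groups stood apart from each other without overlap. Against control, the log2 difference was -0.70 ± 0.06 at 5 h (adjusted p = 8.78e-08) and -1.23 ± 0.06 at 24 h (adjusted p = 9.97e-11).

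Smaller decreases were seen for the single-copy genes rps13, rps27 and rps29. For rps13 (SPAC6F6.07c), which encodes a protein that binds ribosomal RNA in the body, CPM was 1079, 1083, 1088 and 883 at 5 h, 756, 833, 707 and 641 at 24 h and 1431, 1328, 1477 and 1264 in the controls. Replicate 4 was the lowest of the 5 h samples, and the groups did not overlap. For rps13 the log2 fold change was -0.41 ± 0.09 at 5 h (adjusted p = 0.000499) and -0.91 ± 0.09 at 24 h (adjusted p = 1.43e-07). The zinc-finger protein gene rps27 (SPBC1685.10) had 395, 344, 334 and 323 CPM at 5 h, 246, 240, 229 and 257 CPM at 24 h and 424, 467, 414 and 487 CPM in the controls. Its lowest control was only slightly above its highest 5 h sample. In the edgeR fit this was a log2 fold change of -0.36 ± 0.07 at 5 h (adjusted p = 0.000325) and -0.88 ± 0.07 at 24 h (adjusted p = 2.28e-08). Scaled by library size alone, the 5 h difference of rps27 was -0.16 and no longer passed the test (adjusted p = 0.0835), in a fit where the median of all features was 0.21.

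The gene of the zinc-binding head protein rps29 (SPBC1685.09) was the lowest expressed single-copy gene, with 242 ± 28.4 RPKM at 5 h, 187 ± 23.0 RPKM at 24 h and 304 ± 58.8 RPKM in the controls (SD, n = 4 each). In CPM it had 62.9, 83.6, 80.8 and 77.8 at 5 h, 56.6, 71.2, 58.0 and 52.1 at 24 h and 100, 120, 137 and 83.6 in the controls. The highest 5 h sample and the lowest control nearly coincided, and the 5 h and 24 h samples overlapped. For rps29 the log2 fold change was -0.53 ± 0.13 at 5 h (adjusted p = 0.00244), -0.89 ± 0.14 at 24 h (adjusted p = 2.56e-05) and -0.36 ± 0.14 between 24 h and 5 h (adjusted p = 0.0305). The last of these lost its call when any of 6 samples was left out, with values of -0.35 to -0.30.

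The largest decreases were in families with copies. At 5 h the lowest log2 fold change was that of rps1902 (SPBC649.02), one of the genes of a head protein needed for ribosomal RNA maturation. It had 151, 157, 153 and 146 CPM at 5 h, 128, 122, 113 and 106 CPM at 24 h and 335, 344, 393 and 337 CPM in the controls. All D2O samples lay far below all controls, and control replicate 3 was the highest. This gave a log2 fold change of -1.22 ± 0.07 at 5 h (adjusted p = 4.83e-10), 43.1% of control, and -1.59 ± 0.07 at 24 h (adjusted p = 1.47e-11). Its paralogue rps1901 (SPBC21C3.13) had log2 fold changes of -0.73 ± 0.10 at 5 h (adjusted p = 9.5e-06) and -1.18 ± 0.10 at 24 h (adjusted p = 3.98e-08).

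The head protein gene rps1602 (SPAC664.04c), whose product has a tail that reaches toward the decoding site, had 245, 240, 262 and 263 CPM at 5 h, 185, 181, 165 and 170 CPM at 24 h and 495, 484, 624 and 486 CPM in the controls. Control replicate 3 stood above the other controls, which were close to each other, and no D2O sample reached any control. The log2 fold change was -1.05 ± 0.08 at 5 h (adjusted p = 1.41e-08) and -1.58 ± 0.08 at 24 h (adjusted p = 9.42e-11). Without control replicate 3 these values were -0.95 and -1.48.

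A zinc-binding protein near the site where messenger RNA leaves the subunit is encoded by rps2601 and rps2602. For rps2601 (SPAC806.03c) CPM was 216, 206, 206 and 210 at 5 h, 154, 151, 146 and 146 at 24 h and 431, 426, 438 and 414 in the controls. Replicates were close to each other in every group. In rps2601 log2 expression differed from control by -1.03 ± 0.04 at 5 h (adjusted p = 1.72e-11) and -1.52 ± 0.04 at 24 h (adjusted p = 1.32e-13). The feature rps2601-antisense-1 had mean counts of 1.03, 1.12 and 1.03 times those of rps2601 at 5 h, at 24 h and in the controls, so reads of the gene and of its antisense partner cannot be told apart.

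The gene rps001 (SPBC685.06), for a protein of the platform, had 716, 686, 781 and 726 CPM at 5 h, 574, 544, 505 and 478 CPM at 24 h and 1542, 1307, 1750 and 1321 CPM in the controls. The 3 groups did not overlap, and the controls varied most. Against control, the log2 difference was -1.02 ± 0.09 at 5 h (adjusted p = 7.58e-08) and -1.49 ± 0.09 at 24 h (adjusted p = 7.39e-10).

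At 24 h the lowest values belonged to rps1402 and rps403. The platform protein gene rps1402 (SPBC18H10.13) had 324, 357, 398 and 351 CPM at 5 h, 233, 241, 201 and 198 CPM at 24 h and 660, 674, 799 and 607 CPM in the controls. The groups did not overlap. Its log2 fold change was -0.94 ± 0.09 at 5 h (adjusted p = 3.03e-07) and -1.65 ± 0.09 at 24 h (adjusted p = 3.95e-10), which left 31.8% of control. The body protein gene rps403 (SPAC959.07) had 548, 579, 574 and 532 CPM at 5 h, 363, 392, 333 and 333 CPM at 24 h and 1056, 1109, 1264 and 1023 CPM in the controls. Again no sample of one group fell within another. Its level was 50.2% of control at 5 h (log2 SE 0.07, adjusted p = 9.96e-09) and 31.9% at 24 h (log2 SE 0.07, adjusted p = 2.39e-11).

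**Figure D3:**
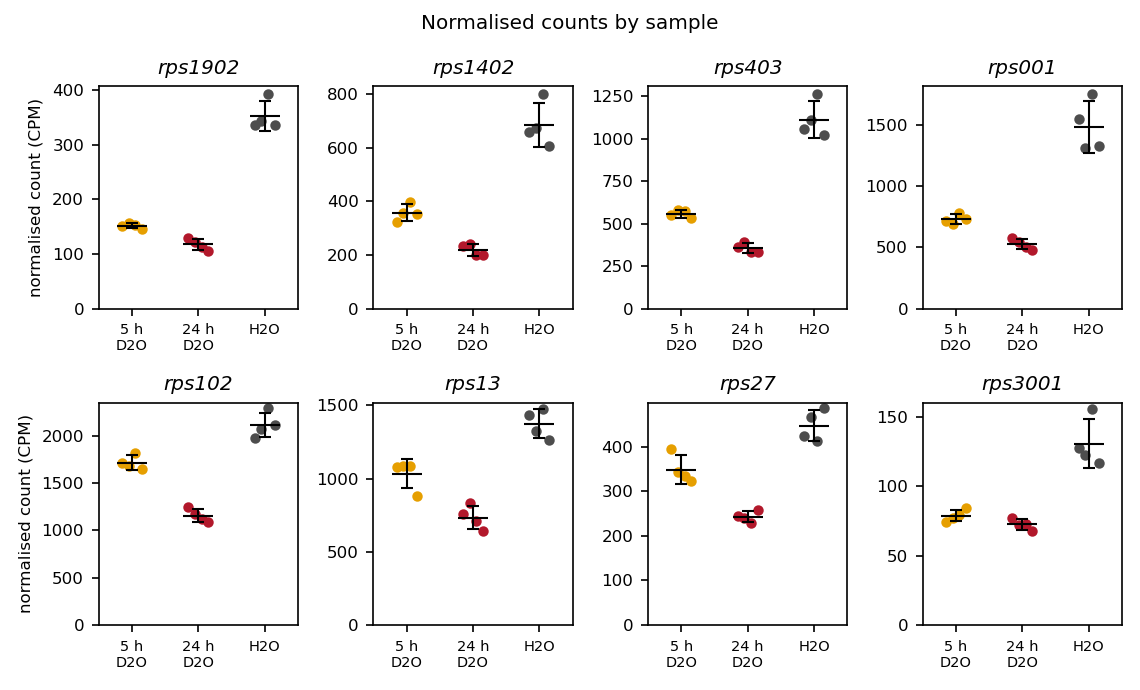
Normalised counts (CPM, y axes from 0) of 8 genes in each sample at 5 h in D2O, at 24 h in D2O and in the H2O controls. Points are samples, lines and bars the mean and SD of 4 samples. The upper row holds genes among the largest decreases at 5 h or 24 h and the lower row genes among the smallest at 5 h or 24 h. The 5 h and 24 h samples overlap for rps3001.

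Within families with copies, the smallest decreases were those of rps102 and rps1202 at 5 h and those of rps3001 and rps102 at 24 h. For rps102 (SPAC22H12.04c), the gene of a platform protein near the messenger RNA exit, CPM was 1717, 1678, 1823 and 1645 at 5 h, 1247, 1172, 1120 and 1087 at 24 h and 1980, 2070, 2292 and 2118 in the controls. The 5 h samples lay below the controls with a gap smaller than the range of the controls, and the 24 h samples lay well below both. In the edgeR fit this was a log2 fold change of -0.30 ± 0.06 at 5 h (adjusted p = 0.000195) and -0.87 ± 0.06 at 24 h (adjusted p = 1.82e-09). With library-size scaling the 5 h value was -0.10 and did not pass the test (adjusted p = 0.0555).

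The head protein gene rps1202 (SPBC1685.02c) differed in timing from its paralogue rps1201 (SPCC962.04). For rps1202 CPM was 510, 580, 534 and 483 at 5 h, 294, 288, 283 and 267 at 24 h and 645, 620, 882 and 683 in the controls. For rps1201 CPM was 288, 358, 334 and 263 at 5 h, 262, 243, 214 and 203 at 24 h and 530, 590, 668 and 565 in the controls. The 5 h samples of rps1202 thus lay nearer to the controls than to the 24 h samples, and those of rps1201 nearer to the 24 h samples. The log2 fold change of rps1202 was -0.43 ± 0.09 at 5 h (adjusted p = 0.000892), -1.32 ± 0.10 at 24 h (adjusted p = 6.85e-09) and -0.89 ± 0.10 between 24 h and 5 h (adjusted p = 1.42e-06), the largest difference of the 55 genes between the times. The values of rps1201 were -0.92 ± 0.11 at 5 h (adjusted p = 1.53e-06), -1.35 ± 0.11 at 24 h (adjusted p = 1.62e-08) and -0.43 ± 0.10 between the times (adjusted p = 0.00219).

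The least expressed gene of the group was rps3001 (SPAC19B12.04), for a small protein of the body that is made as a fusion to a ubiquitin-like sequence in mammals. It had 74.6, 77.2, 79.4 and 84.2 CPM at 5 h, 77.5, 72.1, 73.1 and 68.0 CPM at 24 h and 128, 123, 156 and 117 CPM in the controls. Both D2O groups were below the controls and overlapped each other. Relative to control, log2 expression differed by -0.73 ± 0.08 at 5 h (adjusted p = 5.08e-07) and -0.85 ± 0.08 at 24 h (adjusted p = 6.91e-08). The other gene among the 3 lowest, rps2202 (SPAC5D6.01), for a body protein, averaged 224 ± 26.5 RPKM at 5 h, 164 ± 15.2 RPKM at 24 h and 352 ± 24.3 RPKM in the controls (SD, n = 4 each). Its log2 fold changes were -0.85 ± 0.09 at 5 h (adjusted p = 1.23e-06) and -1.28 ± 0.10 at 24 h (adjusted p = 9.14e-09).

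The S6 protein, phosphorylated by the S6 kinase downstream of TOR, is encoded by rps601 and rps602. In rps601 (SPAC13G6.07c) CPM was 1176, 1106, 1136 and 1087 at 5 h, 897, 759, 824 and 738 at 24 h and 2208, 1942, 2448 and 1980 in the controls. In rps602 (SPAPB1E7.12) CPM was 1182, 1151, 1221 and 931 at 5 h, 859, 761, 814 and 615 at 24 h and 1947, 1742, 2419 and 1766 in the controls. Groups did not overlap for either copy, and control replicate 3 was the highest for both. For rps601 the log2 fold change was -0.93 ± 0.08 at 5 h (adjusted p = 4.25e-08) and -1.41 ± 0.08 at 24 h (adjusted p = 2.5e-10), and that of rps602 was -0.81 ± 0.12 (adjusted p = 2.32e-05) and -1.37 ± 0.12 (adjusted p = 6.92e-08). The ratio of the copies, compared as described next, shifted by -0.12 ± 0.08 at 5 h (exact p = 0.229) and -0.05 ± 0.07 at 24 h (exact p = 0.514).

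The copies of a family were compared by the log2 ratio of their counts within a sample, in which the scaling between samples cancels. There were 25 such pairs, with a protein identity of at least 80.1%. The 3 pairs within rps4 share genes and are not independent of each other, and the same holds for 12 of the large subunit pairs given beside them. At 5 h the ratios of the D2O samples and the controls did not overlap in 12 of the 25 pairs (48.0%), beside 19 of 40 large subunit pairs (47.5%). At 24 h they did not overlap in 13 pairs (52.0%), beside 22 of 40 large subunit pairs (55.0%). Between 24 h and 5 h this held for 2 of the 25 pairs (8.0%), rps1201 with rps1202 and rps402 with rps403, beside 19 of 40 large subunit pairs (47.5%). The shares of shifted pairs against control were thus close in the 2 subunits, while those between the times were not, and this difference was not tested. With 4 samples against 4 the smallest two-sided exact permutation p is 0.0286, which every non-overlapping pair reaches, and p-values are given unadjusted over the 25 pairs and 3 comparisons.

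The median size of the shift was 0.21 at 5 h and 0.25 at 24 h on the log2 scale. Of the 12 pairs at 5 h, 10 shifted toward the copy with the higher RPKM in the controls, as did 10 of the 13 at 24 h, beside 12 of 19 and 12 of 22 large subunit pairs. Neither of the 2 pairs that differed between 24 h and 5 h shifted that way, beside 12 of 19 large subunit pairs. For 7 of the 25 pairs the copies differed at least 2-fold in RPKM in the controls. In 6 pairs, among them rps1401 with rps1402 and rps401 with rps403, the transcripts share a stretch of at least 50 bases, and how reads from such stretches were counted is not given in the sources used here.

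The ratio of rps2601 to rps2602 (SPAC1805.11c) was -1.51, -1.49, -1.52 and -1.58 at 5 h, -1.45, -1.57, -1.53 and -1.61 at 24 h and -0.97, -0.95, -1.09 and -0.96 in the controls. The D2O samples lay together and below all controls. The shift was -0.53 ± 0.04 at 5 h (SE, exact p = 0.0286) and -0.55 ± 0.05 at 24 h (exact p = 0.0286). In RPKM, rps2601 held 26.9% of the pair at 5 h, 26.7% at 24 h and 34.8% in the controls. In rps2602 log2 expression differed from control by -0.50 ± 0.05 at 5 h (adjusted p = 7.15e-07) and -0.97 ± 0.05 at 24 h (adjusted p = 2.76e-10).

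The ratio of rps1201 to rps1202 was -0.82, -0.70, -0.68 and -0.88 at 5 h, -0.17, -0.25, -0.40 and -0.39 at 24 h and -0.28, -0.07, -0.40 and -0.27 in the controls. The 5 h samples lay below all others, and the 24 h samples overlapped the controls. The shift was -0.51 ± 0.08 at 5 h (exact p = 0.0286), -0.05 ± 0.09 at 24 h (exact p = 0.629) and 0.47 ± 0.08 between 24 h and 5 h (exact p = 0.0286).

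The ratio of rps1401 (SPAC3H5.05c) to rps1402 was -0.31, -0.42, -0.64 and -0.36 at 5 h, -0.16, -0.36, -0.09 and -0.12 at 24 h and -0.98, -0.90, -0.87 and -0.84 in the controls. The D2O samples lay above all controls. The shift was 0.47 ± 0.08 at 5 h (exact p = 0.0286) and 0.71 ± 0.07 at 24 h (exact p = 0.0286), the largest of the 25 pairs. Here the shift was toward the copy with the lower level, and rps1401 held 42.0% of the pair's RPKM at 5 h, 46.2% at 24 h and 34.4% in the controls. The log2 fold change of rps1401 was -0.48 ± 0.08 at 5 h (adjusted p = 4.68e-05) and -0.94 ± 0.08 at 24 h (adjusted p = 2.4e-08).

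The ratio of rps1901 to rps1902 was 1.62, 1.71, 1.81 and 2.15 at 5 h, 1.73, 1.59, 1.75 and 1.95 at 24 h and 1.42, 1.30, 1.42 and 1.25 in the controls. Every D2O sample was above every control. The shift was 0.48 ± 0.12 at 5 h (exact p = 0.0286) and 0.41 ± 0.09 at 24 h (exact p = 0.0286).

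For the head protein genes rps1501 (SPCC1393.03) and rps1502 (SPAC1071.07c) the ratio was 0.60, 0.55, 0.47 and 0.53 at 5 h, 0.62, 0.52, 0.64 and 0.55 at 24 h and 0.31, 0.03, 0.02 and 0.06 in the controls. Control replicate 1 was the nearest to the D2O samples but did not reach them. The shift was 0.43 ± 0.07 at 5 h (exact p = 0.0286) and 0.48 ± 0.08 at 24 h (exact p = 0.0286). For rps1501 alone the log2 fold change was -0.56 ± 0.05 at 5 h (adjusted p = 1.55e-07) and -1.06 ± 0.05 at 24 h (adjusted p = 7.78e-11), and for rps1502 it was -0.99 ± 0.06 (adjusted p = 2.59e-09) and -1.54 ± 0.06 (adjusted p = 1.16e-11).

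In the rps4 family the ratio of rps401 (SPBC19F8.08) to rps403 was 0.95, 0.83, 0.80 and 0.90 at 5 h, 0.93, 0.92, 1.05 and 1.13 at 24 h and 0.44, 0.45, 0.33 and 0.57 in the controls. The D2O samples were above all controls. The shift was 0.43 ± 0.06 at 5 h (exact p = 0.0286) and 0.56 ± 0.07 at 24 h (exact p = 0.0286). The gene rps401 itself had a log2 fold change of -0.57 ± 0.05 at 5 h (adjusted p = 3.33e-08) and -1.09 ± 0.05 at 24 h (adjusted p = 1.51e-11).

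**Figure D4:**
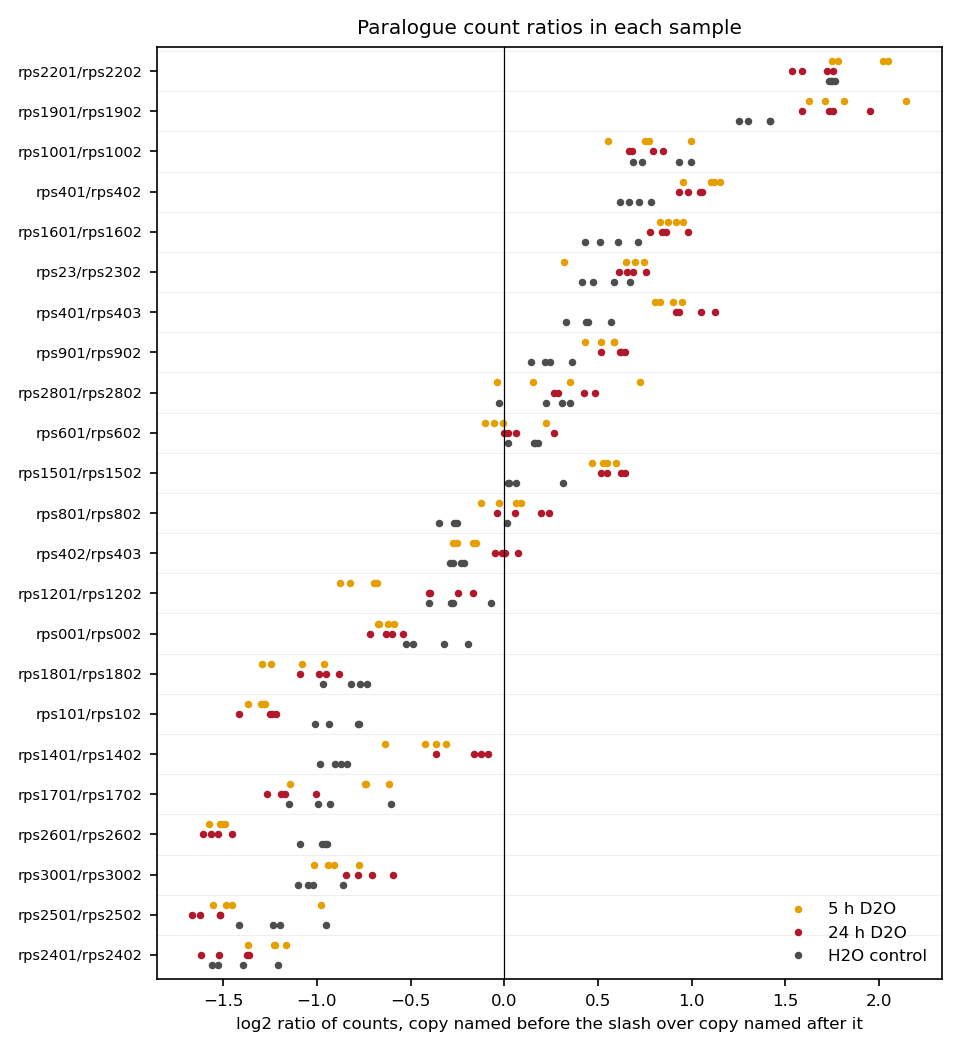
Log2 ratio of the counts of the copies of 23 pairs (x axis) in every sample at 5 h in D2O (orange), at 24 h in D2O (red) and in the H2O controls (grey). Pairs run down the page by their mean ratio in the controls; the D2O samples lie apart from the controls in 11 of the pairs drawn at 5 h and in 13 at 24 h.

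Summed over copies, the 31 families had a median of 1392 RPKM at 5 h, 1016 RPKM at 24 h and 1938 RPKM in the controls. The highest family was 9.52 times the lowest at 5 h, 8.26 times at 24 h and 11.5 times in the controls, and the coefficient of variation across families was 34.5%, 33.9% and 34.8%. Across single genes it was 54.4% at 5 h, 56.0% at 24 h and 49.3% in the controls. The highest gene was 13.8 times the lowest at 5 h, 11.2 times at 24 h and 13.6 times in the controls. Adding values together can by itself lower the coefficient of variation, and sums over unrelated genes were not compared. Single-copy genes had a median of 1524 RPKM at 5 h, 1087 RPKM at 24 h and 1990 RPKM in the controls, beside 677, 440 and 968 RPKM for genes with copies.

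The RPKM values carry no TMM scaling, so family sums are given as percentages of the control mean without a test. The rps6 family was the highest in the controls, with 2215 ± 181 RPKM at 5 h, 1518 ± 152 RPKM at 24 h and 3487 ± 363 RPKM in the controls (SD, n = 4 each). The rps27 family kept 89.4% of the control sum at 5 h and 61.6% at 24 h, the rps1 family 87.8% and 58.7%, and the rps13 family 86.5% and 60.7%. At the other end, the rps10 family kept 61.4% and 43.6%, and the rps16 family 62.9% and 42.7%. The rps1 family had 2305 ± 93.8 RPKM at 5 h, 1542 ± 55.7 RPKM at 24 h and 2626 ± 131 RPKM in the controls, where it ranked 6. At both times in D2O it differed from the rps6 family by less than either SD, and its sum rests on the listed length of rps101 given above. In the controls rps1 and the next family in order, rps25 (2576 ± 231 RPKM), differed by less than either SD.

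**Figure D5:**
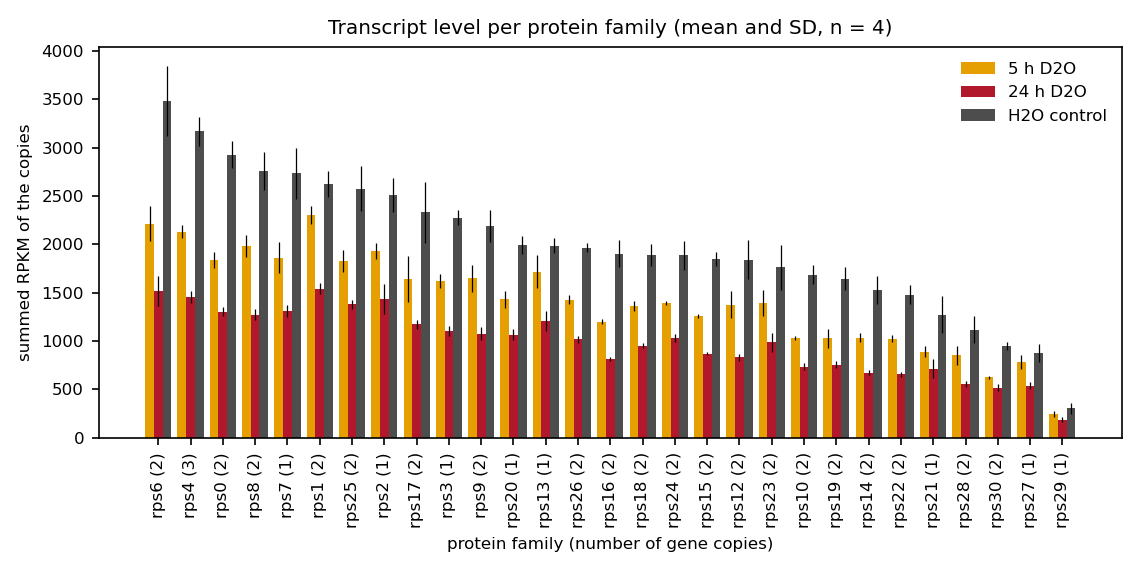
Transcript level of 29 protein families, as the RPKM summed over the copies (y axis), at 5 h in D2O, at 24 h in D2O and in the H2O controls, with bars for the mean and lines for the SD of 4 samples. Families run from the highest to the lowest control level, and the number of copies is in parentheses; the 24 h mean is the lowest of the 3 in each family.

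The decreases were compared across features of the genes that played no part in their choice, as descriptions without a test. The 8 single-copy genes had median log2 fold changes of -0.63 at 5 h and -1.01 at 24 h, and the 47 genes with copies -0.74 and -1.28. Boxes in this comparison are exact matches, as above. The 34 genes with a HomolD box had medians of -0.72 and -1.22, and the 21 without it -0.74 and -1.27. For the 21 genes with a HomolE core the medians were -0.63 and -1.11, and for the 34 without it -0.76 and -1.28. Genes with both boxes (10) had -0.61 and -1.12, and genes with neither (10) had -0.80 and -1.29. The 30 genes with introns in the coding sequence had -0.69 and -1.20, and the 25 without -0.76 and -1.28. Across the 55 genes the Spearman correlation of control RPKM with the log2 fold change was 0.19 at 5 h and 0.17 at 24 h; the genes share libraries and are not independent, and the controls enter both measures.

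Overlapping features may share reads in these tables, and counts were compared only for rps1601 and rps2601 with their antisense features. By RefSeq gene coordinates, 23 of the 55 genes overlap another listed feature. Among them are rps13, rps1202, rps1401, rps1402, rps1502, rps2, rps2202, rps2601, rps2602, rps3 and rps3001. Only the 6845 listed features that matched RefSeq could be placed, and listed lengths differ from RefSeq lengths, so overlaps of the counted features may differ. The feature rps1601-antisense-1 had mean counts of 1.03, 1.02 and 1.02 times those of rps1601 at 5 h, at 24 h and in the controls. All 32 genes without such an overlap were lower than control at both times, with medians of -0.73 at 5 h and -1.21 at 24 h. Of all tested features, 37.3% were called lower at 5 h and 39.4% at 24 h.

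Other genes of the same machinery were read from lists. Of the 83 large subunit genes 81 were lower at 5 h, with a median of -0.74, and 82 at 24 h, with a median of -1.22, where 37.3% and 39.4% of all features were called lower; none was higher. The gene cpc2 (SPAC6B12.15) encodes the RACK1 protein bound to the subunit's head. It fell by 0.55 ± 0.07 at 5 h (SE, adjusted p = 4.94e-06) and by 1.02 ± 0.07 at 24 h (adjusted p = 3.83e-09) on the log2 scale. The gene asc1, which the list holds by its symbol, had -0.63 ± 0.05 (adjusted p = 4.3e-08) and -0.92 ± 0.05 (adjusted p = 3.52e-10). Whether asc1 encodes a RACK1 protein was not established. Of 4 listed ubiquitin fusion genes 3 matched. Among them ubi3 did not pass the test at 5 h, at -0.08 ± 0.08 (adjusted p = 0.387), and was lower at 24 h, at -0.75 ± 0.08 (adjusted p = 5.96e-07). For ubi1 the values were -0.73 ± 0.06 and -1.33 ± 0.06, and for ubi5 -0.43 ± 0.07 and -0.91 ± 0.07, all past the test.

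Of 63 symbols for factors that assemble the small subunit 51 matched, and 50 of these were lower at 5 h and 51 at 24 h, with medians of -0.67 and -1.02, beside the same 37.3% and 39.4% of all features. The exception at 5 h was fap7, an ATPase of late assembly, at -0.20 ± 0.13 (adjusted p = 0.169). The largest decrease of the list at 5 h was in gar2, the nucleolin-like protein of the nucleolus, which averaged 281 CPM at 5 h, 377 CPM at 24 h and 992 CPM in the controls. Its log2 fold change was -1.82 ± 0.11 at 5 h (adjusted p = 1.66e-09) and -1.40 ± 0.11 at 24 h (adjusted p = 1.5e-08). Between 24 h and 5 h, 43 of the 51 were lower and 2 were higher, gar2 at 0.42 ± 0.11 (adjusted p = 0.00287) and utp20 at 0.13 ± 0.04 (adjusted p = 0.0121), where 34.6% of all features were called lower and 33.6% higher. The RNA helicase gene has1 had the lowest value at 24 h, -1.93 ± 0.05 (adjusted p = 8.57e-14). Of 27 symbols listed for translation initiation factors 12 matched. All 12 were lower at both times, with medians of -0.64 and -0.86, again beside 37.3% and 39.4% of all features. The list was made by symbol, and whether each of its genes, such as tif51, acts in initiation was not established. The gene tif213, for a subunit of the factor that brings the initiator transfer RNA, had -1.15 ± 0.07 at 5 h (adjusted p = 1.8e-09) and -1.48 ± 0.07 at 24 h (adjusted p = 5.76e-11), and sui1, for a factor in start codon choice, had -0.34 ± 0.08 (adjusted p = 0.000992) and -0.24 ± 0.08 (adjusted p = 0.00995).

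Of 16 symbols listed for transcription and the TOR kinase branch 14 matched. The list was made by symbol and also holds rap1, maf1, mip1 and toc1. Its counts therefore do not describe regulators of ribosomal protein genes and TOR pathway kinases alone. At each time 9 of the 14 listed genes were higher, 2 were lower and 3 did not pass the test. Of all features 39.1% were called higher at 5 h and 41.8% at 24 h. On the log2 scale the kinase gene tor1 rose by 0.63 ± 0.04 at 5 h (adjusted p = 6.49e-09) and 0.94 ± 0.04 at 24 h (adjusted p = 4.04e-11). The gene of the kinase gad8, which acts with Tor1, rose by 0.51 ± 0.05 (adjusted p = 1.11e-07) and 1.17 ± 0.05 (adjusted p = 7.48e-12). The forkhead factor gene fhl1, whose counterpart acts at ribosomal protein promoters in Saccharomyces cerevisiae, rose by 0.39 ± 0.06 (adjusted p = 3.17e-05) and 0.59 ± 0.06 (adjusted p = 2.47e-07). The gene psk1, for an S6 kinase, had 0.03 ± 0.05 (adjusted p = 0.531) and 0.04 ± 0.05 (adjusted p = 0.483). Another kinase gene of the list, sck1, rose by 0.15 ± 0.04 (adjusted p = 0.00379) and 0.50 ± 0.04 (adjusted p = 1.97e-08). For tor2 the values were 0.00 ± 0.04 (adjusted p = 0.933) and 0.09 ± 0.04 (adjusted p = 0.0571). The 2 lower genes at both times were the kinase gene sck2, at -0.53 ± 0.03 (adjusted p = 3.06e-09) and -0.75 ± 0.03 (adjusted p = 3.83e-11), and rrn7, for a factor known to bind the HomolD box in fission yeast, at -0.28 ± 0.04 (adjusted p = 6.45e-06) and -0.21 ± 0.04 (adjusted p = 9.76e-05).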

How the data were processed

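The authors deposited a table per sample that gives counts, listed lengths and RPKM values of 7015 features. The counts are whole numbers without normalisation, per the file headers and values. The deposited RPKM equals the count per kilobase of listed length scaled to the total count, with a largest relative difference of 4.96e-06 when recomputed. BWA 0.7.12 is named in the submitters' processing notes; its role, the counter, genome build, annotation and strandedness are not given in the sources used here.

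Counts were tested in R 4.3.3 by the edgeR (4.0.16, with limma 3.58.1) quasi-likelihood F test on all 12 samples with group as the only term, TMM scaling (factors 1.04 to 1.06 at 5 h, 1.01 to 1.07 at 24 h and 0.879 to 0.944 in the controls) and filterByExpr at a minimum of 10 counts, which kept 6683 features and all 55 genes. Adjusted p-values are Benjamini-Hochberg over these features, with a threshold of 0.05. The standard error is the absolute log2 fold change over the square root of F. The biological coefficient of variation was 8.47%. The fit was tested on simulated counts first.

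Paralogue ratios used counts plus 1 and two-sided exact permutation tests (scipy 1.17.1). Copies share the number in the symbol; where 1 symbol of a pair has no copy number, as for rps23 with rps2302, the genes were paired after the symbols were seen. Large subunit pairs under 50% protein identity were left out, also after the data were seen. Some genes enter the counts and medians but are not reported here by name or drawn. Promoters and transcripts were read from RefSeq assembly ASM294v3 with Biopython 1.88, and its coordinates are not those of the deposited files. Figures used matplotlib 3.10.9.

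The genes, lists and tests were chosen with earlier results of these data known. Named genes are the 4 lowest and 4 highest log2 fold changes against control at each time, the copies of the 4 largest ratio shifts, the 3 highest and 3 lowest control RPKM, and rps601 and rps602; other genes and families named were chosen after their values were seen. Correlations of the deviations of same-numbered samples were mixed: -0.13 to 0.07 for 5 h with control, -0.27 to 0.54 for 24 h with control and -0.11 to 0.66 for 24 h with 5 h. Since they were not above 0.1 for every number, numbers were not taken to pair samples. Alternatives were other scalings and filters, DESeq2 1.42.0, a replicate block, only the groups compared, fewer features and each sample left out. No replicates were identical. PCR copies were not told apart, and p-values measure the spread between these samples.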

Additional observations from a re-analysis of the deposited data

Results flagged for a closer look

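In 6 of 96 sets of 4 values examined, 1 sample lay far from the other 3 by Dixon's criterion, which chance gives in about 1 of 20 sets. The share of counts held by the 55 genes was 4.87% in control replicate 3, above the other controls. The same sample was the high one for rps1602 (624 CPM) and rps1902 (393 CPM) and the low one for the log2 ratio of rps2601 to rps2602 (-1.09). Control replicate 1 was the high one for the log2 ratio of rps1501 to rps1502 (0.31). Replicate 4 at 5 h was the low one for rps13 (883 CPM); without it the log2 fold change of rps13 at 5 h was -0.34 (adjusted p = 0.0014).

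The difference from control was larger at 24 h than at 5 h for 54 of the 55 genes, by the edgeR test of 24 h against 5 h. In that test 34.6% of all features were called lower at 24 h. For rps1201 and rps1202 the log2 ratio differed by 0.47 between 24 h and 5 h (exact p = 0.0286, the smallest that 4 against 4 samples allow), with no overlap between the samples.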

How the results depend on the processing

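The number of genes called lower stayed at 55 at 5 h and 55 at 24 h, and at 54 between the times, under median-of-ratios scaling, DESeq2, no filter on low counts, a minimum mean of 50 counts, only the groups compared, without the 10 most counted features and with protein-coding features only; library-size scaling called 53 at 5 h. That scaling moved the median log2 fold change to -0.52 at 5 h and -1.06 at 24 h, and moved the median of all features to 0.21 and 0.20. Leaving out each sample in turn gave medians of -0.74 to -0.65 at 5 h, -1.28 to -1.20 at 24 h and -0.54 to -0.48 between the times, with 55, 55 and 52 to 53 genes lower. Shifted pairs then numbered 12 to 14 at 5 h and 14 to 15 at 24 h. Leaving out a sample cannot make separate groups overlap, so this count could not fall and does not check the shifts. Same-numbered samples correlated in part, by up to 0.66 for number 2 between 24 h and 5 h, which did not meet the criterion for pairing. With the replicate block the counts were 55, 55 and 54 with medians of -0.71, -1.25 and -0.52. The 4 within-number differences of the ratio had the same sign in 16 pairs at 5 h and 17 at 24 h, which every pair without overlap has by construction. Among the 19 pairs without a shared 50-base stretch, 8 were shifted at 5 h and 10 at 24 h, and pseudocounts of 0.5 or 5 left 12 and 13. Of the alternative values of named genes 1267 kept their sign and their side of the threshold, none changed sign, and 8 lost their call: rps102 and rps27 at 5 h under library-size scaling, and rps29 between the times when 1 of 6 samples was left out.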
